A study of Homo sapiens with 3 samples.

Results

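Collagens, laminins, integrins, matrix metalloproteinases (MMPs) and their tissue inhibitors (TIMPs) were followed at the RNA level in Kelly neuroblastoma cells that were sensitive, intermediate resistant or fully resistant to TAE684, an inhibitor of the kinase ALK. Genes were taken by name, as every row of the gene table whose symbol is that of a numbered collagen chain, a laminin alpha, beta or gamma chain, an integrin-named gene, a numbered MMP or a TIMP. The rule gave 111 of 32738 gene rows, under 110 distinct symbols because ITGB3 has 2 identifiers. Of these, 41 were measured, which here means a level of at least 2 CPM in any library. A level in CPM is the number of unique molecular identifiers (UMIs, distinct captured RNA molecules) of a gene per 1000000 UMIs of all genes, summed over the called cells of a library. By the same rule 11956 of all gene rows were measured.

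Kelly is an established human neuroblastoma line, and all cells were of this line. Sensitive cells were grown with the vehicle DMSO, intermediate resistant cells with 500 nM TAE684 and fully resistant cells with 1 µM TAE684, in otherwise the same serum-containing medium. Single cells were released with trypsin and captured with the 10x Genomics 3′ v2 chemistry, and each state had 1 library. There was therefore no replicate of any state, no test was run, and a difference between libraries cannot be told apart from one between any other cultures or captures.

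Collagens form the fibrils and networks of the extracellular matrix, and laminins, each a trimer of an alpha, a beta and a gamma chain, form basement membranes together with the collagen IV network. Integrins are receptors made of an alpha and a beta subunit that bind these proteins on the outside and the cytoskeleton on the inside. MMPs cut matrix proteins outside the cell and TIMPs block them. In the nervous system these families are best known from the basement membranes around nerves and vessels and from the migration of neural crest cells, the lineage from which neuroblastoma arises.

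COL4A1 and COL4A2, which encode the chains of the common collagen IV trimer, lie head to head on chromosome 13 and are transcribed away from each other. Their reference promoter windows, each running from 250 bases before to 50 after the gene start, shared 226 bases (chr13:110307108-110307333), and the starts were 127 bases apart. The COL4A2 window is shown because this pair was lower together in both resistant libraries. In it the COL4A2 start is position 251, counted from the 5′ end, and the COL4A1 start lies at position 124 on the opposite strand. The windows of COL9A2 and COL16A1 are shown as those of collagens that were 17.6-fold and 18.1-fold higher in fully resistant than in sensitive cells, and that of ITGA11 as that of a gene that was 22.1-fold lower there. All come from RefSeq on GRCh38.p14, are given 5′ to 3′ on the gene's strand, and have GGGCGG or its reverse complement CCGCCC in capitals. They are COL4A2 at chr13:110307034-110307333 on the plus strand, COL9A2 at chr1:40317237-40317536 on the minus strand, COL16A1 at chr1:31703968-31704267 on the minus strand and ITGA11 at chr15:68432114-68432413 on the minus strand.
COL4A2: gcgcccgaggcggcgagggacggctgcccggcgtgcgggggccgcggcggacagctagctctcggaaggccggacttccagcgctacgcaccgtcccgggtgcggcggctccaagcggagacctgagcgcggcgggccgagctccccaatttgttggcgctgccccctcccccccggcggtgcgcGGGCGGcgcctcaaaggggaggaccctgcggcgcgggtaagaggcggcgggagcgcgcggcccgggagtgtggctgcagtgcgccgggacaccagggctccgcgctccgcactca
COL9A2: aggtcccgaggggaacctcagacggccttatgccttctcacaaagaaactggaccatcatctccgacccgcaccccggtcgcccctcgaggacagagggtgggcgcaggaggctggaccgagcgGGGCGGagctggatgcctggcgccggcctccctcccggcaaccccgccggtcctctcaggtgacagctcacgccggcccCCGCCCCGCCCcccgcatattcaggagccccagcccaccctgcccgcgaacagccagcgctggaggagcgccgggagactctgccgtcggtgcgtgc
COL16A1: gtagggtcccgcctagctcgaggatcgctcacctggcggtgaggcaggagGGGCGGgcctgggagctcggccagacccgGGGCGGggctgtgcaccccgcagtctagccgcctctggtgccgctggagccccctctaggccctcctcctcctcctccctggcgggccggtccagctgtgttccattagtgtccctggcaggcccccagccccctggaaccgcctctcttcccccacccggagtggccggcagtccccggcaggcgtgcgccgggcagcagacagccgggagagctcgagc
ITGA11: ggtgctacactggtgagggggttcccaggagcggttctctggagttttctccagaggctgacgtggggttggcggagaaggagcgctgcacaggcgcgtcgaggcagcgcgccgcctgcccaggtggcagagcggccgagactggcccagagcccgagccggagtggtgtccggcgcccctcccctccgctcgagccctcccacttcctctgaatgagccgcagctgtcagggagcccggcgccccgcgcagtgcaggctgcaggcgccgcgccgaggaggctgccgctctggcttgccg
The windows were rich in G and C, at 77.7% in COL4A2, 71.7% in COL9A2, 73.7% in COL16A1 and 72% in ITGA11. GGGCGG, searched on both strands, was found 1 time in COL4A2, inside the stretch shared with COL4A1, 3 times in COL9A2, 2 times in COL16A1 and 0 times in ITGA11. In COL9A2, 2 of the 3 matches overlap by 1 base, and no match shares bases with the other motifs searched. Of the 41 measured genes, 29 had promoter windows in the reference table, 37 windows in all. GGGCGG occurred in 23 of these 37 (62.2%), against 45.0% of the 35116 windows of the whole table. CCAAT, on either strand, occurred in 8 (21.6%), against 34.6%, and CACGTG in 1 (2.7%), against 7.26%. The median G and C content was 67.0% in the 37 windows, against 58.7% in the table. A match describes the letters of a window and not the binding of a factor.

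The libraries held 5415 sensitive, 6288 intermediate resistant and 6331 fully resistant cells, with medians of 16008, 15660.5 and 16014 UMIs and of 3625, 3413 and 3633 genes per cell. Called cells carried 95119772, 102449567 and 106163582 UMIs, which were 94.76%, 94.38% and 93.98% of each library. Mitochondrially encoded genes made up 5.57%, 5.13% and 6.57% of the UMIs and ribosomal protein genes 36.7%, 39.6% and 33.6%. Barcodes not called as cells held at most 79, 85 and 109 UMIs at their 99th percentile. Free RNA in that amount would be 0.45%, 0.522% and 0.65% of the mean UMIs of a cell, and a larger share of the smaller cells. Cell barcodes shared by 2 libraries numbered 62 between fully resistant and sensitive, 38 between intermediate resistant and sensitive and 56 between fully and intermediate resistant cells, beside the 46.5, 46.2 and 54.0 given by the product of the cell numbers over all possible barcodes, and 0 were shared by all 3. The 10 noradrenergic neuroblastoma markers, among them DBH, were all measured and summed to 2565, 4287 and 2279 CPM. Within that sum the markers differed in direction. By a ratio of at least 2, 3 were higher and 3 lower in fully resistant than in sensitive cells, beside 8.01% and 8.68% of all genes. Fibroblast markers were partly present, with 4 of 8 measured and sums of 43.1, 45.9 and 30.5 CPM that came mainly from PDGFRB and THY1, while FAP had no UMI in any library and DCN at most 0.179 CPM. PDGFRA, also of that list, was at 0.305, 6.05 and 0.122 CPM, or 19.8-fold higher in intermediate resistant than in sensitive cells (13.7 to 29.9), and LUM was at 0.2, 0.234 and 1.49 CPM. Of the Schwann cell markers, 3 of 6 were measured, among them FOXD3 at 0.0105, 3.45 and 4.55 CPM, while SOX10 was at 0, 0 and 0.0188 CPM. FOXD3 was 433-fold higher in fully resistant than in sensitive cells, where it had 1 UMI (77.3 to 17130). Endothelial markers (1 of 5 measured) summed to 0.705, 1.06 and 36.9 CPM through CLDN5, with CDH5 at 0 in fully resistant cells. Leukocyte markers (1 of 6 measured) summed to at most 2.63 CPM. The part of the fibroblast, Schwann cell and endothelial markers in the differences between libraries was not tested.

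The 41 measured genes comprised 13 of 43 collagens, 6 of 12 laminins, 11 of 27 integrin subunits, 2 of 4 integrin-named genes that encode no receptor subunit, 7 of 21 MMPs and 2 of 4 TIMPs. The other 70 rows stayed below 2 CPM everywhere, 14 of them with no UMI in any library and 56 with some. The nearest below the limit were COL22A1 at 1.14 CPM, COL5A1 at 1.04 CPM and COL6A5 at 1.01 CPM in their highest libraries, and the nearest above it were COL9A1 at 2.17 CPM, COL4A1 at 2.66 CPM and ITGA9 at 3.02 CPM. Only 16 measured members reached 10 CPM, as did 7850 of all measured genes, so most of these RNAs were scarce in these cells. The chemistry counts 3′ ends, so levels are not corrected for gene length and are compared between libraries, not between genes. Exact Poisson 95% intervals of levels of at least 10 CPM reached at most 6.31% above and 6.03% below the value, and those of levels of 2 to under 10 CPM at most 15.1% above and 13.6% below. Ratios carry exact conditional Poisson 95% intervals, in parentheses. Both kinds cover counting error only.

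Calls rested on size alone. A gene was called higher or lower at a level of at least 2 CPM in the higher of the compared libraries and a ratio of at least 2. Between fully resistant and sensitive cells 10 of 41 members tested were higher (24.4%) and 9 were lower (22%), where 8.01% of all 11809 genes tested were higher and 8.68% lower. Between intermediate resistant and sensitive cells 7 of 39 were higher (17.9%) and 9 lower (23.1%), beside 3.42% and 5.8% of all genes. From intermediate to full resistance, 8 of 38 were higher (21.1%) and 6 lower (15.8%) in fully resistant cells, beside 6.7% and 5.02%. Genes of low level cross a ratio of 2 more often, and the comparison was therefore also read by level. Among members at 2 to under 10 CPM, 13 of 26 (50%) were called in either direction between fully resistant and sensitive cells, against 24.9% of all genes at such levels. At 10 CPM or more it was 6 of 15 (40.0%), against 12.4%. For intermediate resistant against sensitive cells the shares were 11 of 26 (42.3%) against 15% at the lower levels and 5 of 13 (38.5%) against 6.02% at the higher. For fully against intermediate resistant cells they were 10 of 27 (37%) against 17.9% and 4 of 11 (36.4%) against 8.33%. Over all levels and in either direction, 19 of 41 members (46.3%) were called between fully resistant and sensitive cells, beside 16.7% of all genes, 16 of 39 (41%) between intermediate resistant and sensitive cells, beside 9.22%, and 14 of 38 (36.8%) between fully and intermediate resistant cells, beside 11.7%. The median member lay close to the median gene. The members' median log2 ratio was 0.13 for fully resistant over sensitive cells, beside 0.07 for all genes, and -0.12 for intermediate resistant over sensitive cells, beside -0.08. For fully over intermediate resistant cells it was 0.23, beside 0.14. TMM scaling moved the last all-gene median to 0.00, a shift of more than 0.1, and left the same counts of members higher and lower in each comparison, while over all genes the split went to 655 higher and 737 lower, against 779 and 584 with total UMIs.

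**Figure D1:**
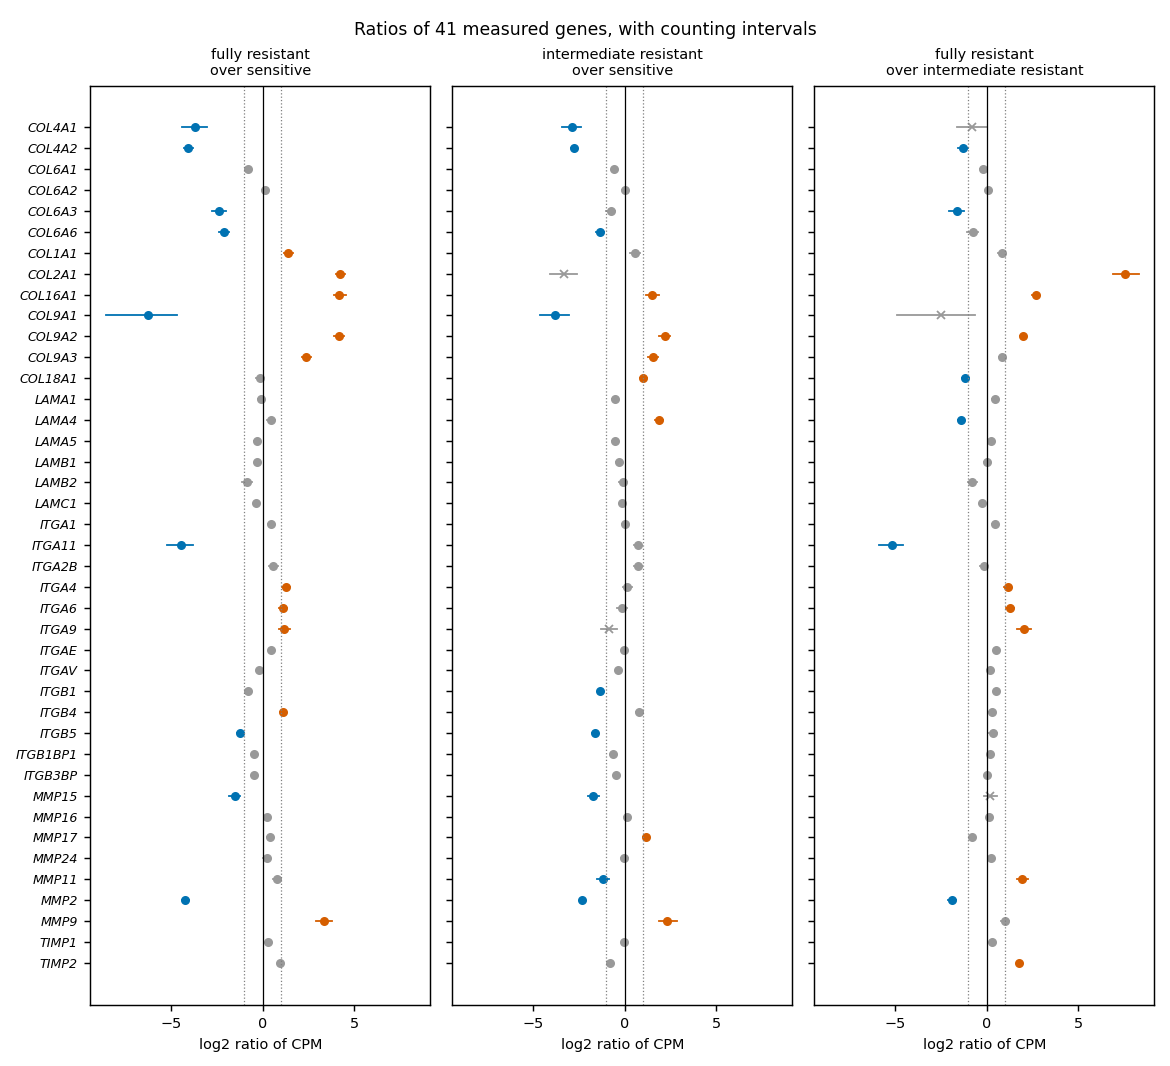
Log2 ratios of CPM of all 41 measured genes for the 3 comparisons, each point with its exact conditional Poisson 95% interval. Orange points are called higher, blue points lower and grey points neither, crosses mark genes below 2 CPM in both libraries, and dotted lines mark a ratio of 2. Collagens at the top hold ratios far to either side, from COL9A1 at -6.26 to COL2A1 at 4.24 for fully resistant over sensitive cells, where the 6 laminin chains lie between -0.86 and 0.47.

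The collagen IV chains were highest in sensitive cells and lowest in fully resistant cells. COL4A2 was at 23.1 CPM in sensitive, 3.43 CPM in intermediate resistant and 1.39 CPM in fully resistant cells. COL4A1 was at 2.66 CPM, 0.361 CPM and 0.207 CPM in the same order. For each chain the interval of the sensitive library lay above those of both resistant libraries. In fully resistant against sensitive cells, COL4A2 was 16.6-fold lower (14 to 19.7) and COL4A1 12.8-fold lower (8.29 to 20.9). In intermediate resistant against sensitive cells, COL4A2 was 6.75-fold lower (6.03 to 7.58) and COL4A1 7.37-fold lower (5.20 to 10.7), and the intervals of the chains overlapped in both comparisons. COL4A3, COL4A4 and COL4A6 were at most 0.0315 CPM and COL4A5 had no UMI in any library. PXDN encodes peroxidasin, the enzyme that cross-links collagen IV. It was at 7.98 CPM in sensitive, 5.91 CPM in intermediate resistant and 0.00942 CPM, a count of 1 UMI, in fully resistant cells. In fully resistant cells PXDN was 847-fold lower than in sensitive cells, with a wide counting interval (152 to 33500), and it was named here after its values were seen.

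Collagen VI, a beaded filament network that links basement membranes to the surrounding matrix, is built from alpha 1, alpha 2 and a longer chain. COL6A1 was at 14.5 CPM in sensitive, 9.60 CPM in intermediate resistant and 8.32 CPM in fully resistant cells, and COL6A2 at 6.39, 6.56 and 6.98 CPM. Neither was called in any comparison. The longer chains COL6A3 and COL6A6 were lower in fully resistant cells. COL6A3 was at 3.46 CPM, 2.04 CPM and 0.659 CPM in sensitive, intermediate and fully resistant cells, and it was 5.25-fold lower in fully resistant than in sensitive cells (4.04 to 6.89). Between intermediate resistant and sensitive cells COL6A3 was not called, at 1.69-fold lower. COL6A6 was at 6.42, 2.53 and 1.49 CPM, and it was 4.32-fold lower in fully resistant than in sensitive cells (3.62 to 5.17) and 2.54-fold lower in intermediate resistant than in sensitive cells (2.19 to 2.95). The unmeasured COL6A5 followed the same order, at 1.01, 0.654 and 0.0377 CPM.

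No measured laminin chain was called between the end states. Of 6 chains, 0 passed the limit between fully resistant and sensitive cells, beside 16.7% of all genes called in either direction. With so few chains, this count cannot be told apart from that share. The ratios of the chains ran from LAMB2, at a log2 ratio of -0.86, to LAMA4, at 0.47. LAMC1 encodes the gamma 1 chain, shared by most laminins. It was at 13.8 CPM in sensitive, 12.7 CPM in intermediate resistant and 10.6 CPM in fully resistant cells. LAMB1, the beta 1 chain, was at 7.84, 6.28 and 6.41 CPM. Of the alpha chains that join them, LAMA1 was at 9.31, 6.34 and 8.72 CPM and LAMA5 at 7.15, 4.96 and 5.84 CPM. LAMA4, the alpha chain of the laminin of vessels and peripheral nerve, was at 2.72 CPM in sensitive, 9.90 CPM in intermediate resistant and 3.76 CPM in fully resistant cells. The intermediate library stood out, 3.64-fold higher than the sensitive (3.17 to 4.18), and fully resistant cells were 2.63-fold lower than intermediate resistant ones (2.34 to 2.96).

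COL18A1, another basement membrane collagen and the source of endostatin, was, like LAMA4, highest in the intermediate library. It was at 3.87 CPM in sensitive, 7.86 CPM in intermediate resistant and 3.52 CPM in fully resistant cells. The intermediate library was called 2.03-fold higher than the sensitive (1.79 to 2.30), and fully resistant cells were 2.23-fold lower than intermediate resistant ones (1.97 to 2.53). Of the other basement membrane genes listed, 5 were tested between fully resistant and sensitive cells. Among these, 1 was higher (EGFLAM) and 1 lower (PXDN), beside 16.7% of all genes called in either direction. The median log2 ratio of the 5 was 0.49, beside 0.07 for all genes. The nidogens, perlecan and agrin, also listed, stayed below 2 CPM and are not in that median. HSPG2, which encodes perlecan, was at 1.71, 0.371 and 0.499 CPM and AGRN, which encodes agrin, at 0.925, 0.469 and 0.443 CPM in sensitive, intermediate and fully resistant cells. SPARC, a secreted collagen-binding glycoprotein, was at 50.3, 35.8 and 90.0 CPM in sensitive, intermediate and fully resistant cells. It was 1.79-fold higher in fully resistant than in sensitive cells (1.73 to 1.85), below the limit, and 2.51-fold higher in fully than in intermediate resistant cells (2.42 to 2.61).

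Of the collagens known from cartilage, COL2A1, COL9A2 and COL9A3 were higher in fully resistant than in sensitive cells and COL9A1 was lower. COL2A1 encodes the fibrillar collagen of cartilage, and its level was 1.73 CPM in sensitive (1.48 to 2.02), 0.176 CPM in intermediate resistant (0.104 to 0.278) and 32.7 CPM in fully resistant cells (31.6 to 33.8). It was thus lowest, not intermediate, in the intermediate resistant library. COL2A1 was 18.9-fold higher in fully resistant than in sensitive cells (16.1 to 22.2), and 186-fold higher in fully than in intermediate resistant cells (118 to 314). In intermediate resistant against sensitive cells it was 9.87-fold lower (6.06 to 17.1), without a call because both levels were under 2 CPM. Thinning each cell to 5000 UMIs moved the log2 ratio to 8.92 for fully over intermediate resistant cells, where it was 7.54, and to -4.77 for intermediate resistant over sensitive cells, where it was -3.30.

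Collagen IX decorates collagen II fibrils and is a trimer of the products of COL9A1, COL9A2 and COL9A3. Its chains did not move together. COL9A2 was at 1.26, 5.70 and 22.2 CPM in sensitive, intermediate and fully resistant cells, 17.6-fold higher in fully resistant than in sensitive cells (14.6 to 21.3). COL9A3 was at 1.62, 4.64 and 8.37 CPM, 5.17-fold higher in fully resistant than in sensitive cells (4.35 to 6.18). COL9A1 ran the other way, at 2.17 CPM, 0.156 CPM and 0.0283 CPM, the last a count of 3 UMIs. It was 76.6-fold lower in fully resistant than in sensitive cells, with a counting interval of 25.9 to 375. TCFL5 lies on the opposite strand over the 3′ end of COL9A3 and was at 2.98, 3.13 and 9.45 CPM. Whether the counting used strand is not given in the sources used here, so reads of the pair may not be told apart. Opposite-strand genes also cover the 3′ ends of ITGB4, MMP24, MMP9, LAMA5, LAMB1, COL18A1, TIMP1 and ITGB1BP1.

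COL16A1, a fibril-associated collagen that also binds integrins, was higher at each step of resistance. It was at 0.873 CPM in sensitive, 2.48 CPM in intermediate resistant and 15.8 CPM in fully resistant cells. The 3 intervals did not overlap. COL16A1 was 18.1-fold higher in fully resistant than in sensitive cells (14.5 to 22.9) and 2.84-fold higher in intermediate resistant than in sensitive cells (2.21 to 3.69). COL1A1, a chain of the fibrillar collagen of bone and skin, was at 2.04, 3.05 and 5.36 CPM, and 2.63-fold higher in fully resistant than in sensitive cells (2.23 to 3.11). COL1A2, its usual partner chain, was at 0, 0 and 0.32 CPM. SOX9, the transcription factor that drives COL2A1 and collagen IX genes in cartilage, is not among the 111 rows and was looked up after these values were seen. It was at 5.18, 15.4 and 35.1 CPM in sensitive, intermediate and fully resistant cells, an order that COL9A2, COL9A3 and COL16A1 shared and COL2A1 and COL9A1 did not. The part of SOX9 in these levels was not tested.

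**Figure D2:**
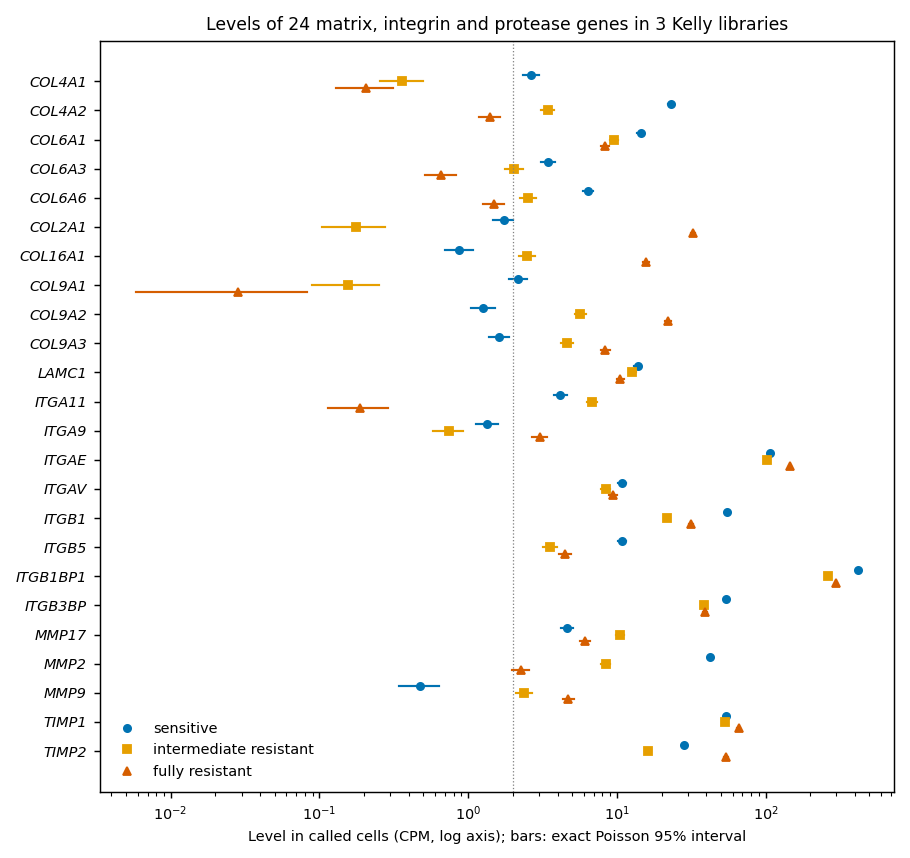
Levels of 24 genes in called cells (CPM, log axis) in the sensitive (blue circles), intermediate resistant (orange squares) and fully resistant library (red triangles), 1 library each, with exact Poisson 95% intervals. The dotted line marks 2 CPM. COL4A1, COL4A2 and MMP2 run from right to left with resistance, COL16A1, COL9A2 and MMP9 from left to right, and COL2A1 has its intermediate library far to the left at 0.176 CPM.

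The collagen-processing enzymes and chaperones, which hydroxylate, fold, trim and cross-link collagen chains, gave 18 genes tested between fully resistant and sensitive cells. Of these, 1 was higher (P4HA2) and 1 lower (ADAMTS2), beside 16.7% of all genes called in either direction, with a median log2 ratio of 0.06, beside 0.07 for all genes. ADAMTS2, the protease that removes the amino-terminal propeptide of fibrillar procollagens, was named after its values were seen. It was at 8.46, 2.85 and 0.725 CPM in sensitive, intermediate and fully resistant cells, and 11.7-fold lower in fully resistant than in sensitive cells (9.23 to 14.9). SERPINH1, the collagen chaperone HSP47, was at 18.4, 12.4 and 21.7 CPM, and PCOLCE, an enhancer of procollagen C-proteinase, at 44.8, 49.2 and 24.8 CPM. Neither was called between fully resistant and sensitive cells.

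Of the 3 measured integrin beta subunits, ITGB1 and ITGB5 had their highest levels in sensitive cells and ITGB4 in fully resistant cells. ITGB1 pairs with most of the alpha subunits measured here. Its level was 55.1 CPM in sensitive (53.7 to 56.7), 21.9 CPM in intermediate resistant (21 to 22.8) and 31.6 CPM in fully resistant cells (30.5 to 32.6). The sensitive library was highest and the intermediate lowest, with no overlap of intervals. ITGB1 was 1.75-fold lower in fully resistant than in sensitive cells (1.67 to 1.83), short of a call, and 2.52-fold lower in intermediate resistant than in sensitive cells (2.40 to 2.65). ITGB5, which pairs with the alpha V subunit as a vitronectin receptor, was at 10.8, 3.55 and 4.51 CPM in sensitive, intermediate and fully resistant cells. It was 2.40-fold lower in fully resistant (2.15 to 2.68) and 3.04-fold lower in intermediate resistant than in sensitive cells (2.70 to 3.44). ITGB4 pairs only with ITGA6 and went the other way, at 3.62, 6.33 and 7.75 CPM, or 2.14-fold higher in fully resistant than in sensitive cells (1.89 to 2.44). GALK1 overlaps the 3′ end of ITGB4 on the opposite strand, at 36.8, 49.6 and 49.6 CPM.

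ITGA11, the alpha subunit of a receptor for fibrillar collagen, was far lower in fully resistant cells than in both other libraries. It was at 4.16 CPM in sensitive, 6.80 CPM in intermediate resistant and 0.188 CPM in fully resistant cells, the last a count of 20 UMIs. ITGA11 was 22.1-fold lower in fully resistant than in sensitive cells (14.1 to 36.6) and 36.1-fold lower in fully than in intermediate resistant cells (23.2 to 59.5). In intermediate resistant against sensitive cells it was 1.63-fold higher (1.44 to 1.85), without a call. ITGA1, the alpha subunit of another collagen receptor, was at 5.55, 5.62 and 7.60 CPM and was called in no comparison. ITGA2 and ITGA10, the other collagen-binding alpha subunits, were at most 0.48 CPM.

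The alpha subunits ITGA6, ITGA4 and ITGA9 were highest in the fully resistant library. ITGA6, of the laminin receptors, was at 2.49, 2.27 and 5.43 CPM in sensitive, intermediate and fully resistant cells. ITGA4, which binds fibronectin and VCAM1, was at 2.72, 2.98 and 6.62 CPM. ITGA9, its closest relative, was at 1.35, 0.742 and 3.02 CPM. Fully resistant cells stood apart from both other libraries in all 3 genes. The folds over sensitive cells were 2.18 for ITGA6 (1.87 to 2.55), 2.43 for ITGA4 (2.11 to 2.82) and 2.25 for ITGA9 (1.83 to 2.78). Against intermediate resistant cells ITGA9 was 4.08-fold higher in fully resistant cells (3.17 to 5.31).

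ITGAV, the alpha V subunit, was at 10.8, 8.40 and 9.44 CPM in sensitive, intermediate and fully resistant cells, and was called in no comparison. ITGAE, known as the alpha subunit of a lymphocyte receptor for E-cadherin, was at 107, 103 and 146 CPM. Its fully resistant library was the highest, by 1.37-fold over sensitive cells (1.33 to 1.40). ITGB7, the partner of ITGAE, was at most 0.0195 CPM, and ITGB3, the partner of the measured ITGA2B, at most 0.0105 CPM. ITGA5, the main fibronectin receptor subunit, was at most 0.294 CPM, and ITGA3 at most 0.849 CPM. Of 11 subunits tested, 4 were higher and 2 lower in fully resistant than in sensitive cells, beside 8.01% and 8.68% of all genes. In intermediate resistant against sensitive cells 0 of 10 were higher and 2 were lower, beside 3.42% and 5.8% of all genes.

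Products of 2 measured genes carry integrin names without being subunits. ITGB1BP1, a cytoplasmic binder of the ITGB1 tail, was at 416 CPM in sensitive, 265 CPM in intermediate resistant and 299 CPM in fully resistant cells. ITGB3BP, a centromere protein also known as CENPR, was at 53.9, 38.9 and 39.0 CPM. Both were highest in sensitive cells, and neither was called. ITGB1BP1 was 1.39-fold lower in fully resistant than in sensitive cells (1.37 to 1.41) and ITGB3BP 1.38-fold lower (1.32 to 1.44).

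The intracellular adaptors of integrins gave 19 genes tested between fully resistant and sensitive cells, with 2 higher and 4 lower. Between intermediate resistant and sensitive cells 20 were tested, with 1 higher and 4 lower. Of all genes, 8.01% were higher and 8.68% lower in the first comparison and 3.42% and 5.8% in the second. The median log2 ratios of the adaptors were -0.22 and -0.30, beside 0.07 and -0.08 for all genes. TLN1 encodes talin, which binds integrin tails and switches the receptors on. It was at 46.4, 42.4 and 23.0 CPM in sensitive, intermediate and fully resistant cells, or 2.02-fold lower in fully resistant than in sensitive cells (1.92 to 2.12). RSU1, of the complex around integrin-linked kinase, was at 25, 10.6 and 10.9 CPM. PARVA, the alpha-parvin of the same complex, was at 5.83, 0.966 and 0.151 CPM, and 38.7-fold lower in fully resistant than in sensitive cells (23.6 to 68.2). PARVA was named after its values were seen. The kinases FYN and SRC, which signal at integrin adhesions, were higher. FYN was at 41.4, 37.4 and 105 CPM, or 2.54-fold higher in fully resistant than in sensitive cells (2.45 to 2.63), and SRC at 7.76, 8.99 and 16.4 CPM, or 2.11-fold higher (1.94 to 2.30).

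Membrane proteins that travel with integrins gave 7 genes tested. In fully resistant against sensitive cells 2 were higher and 1 lower, beside 8.01% and 8.68% of all genes. Between intermediate resistant and sensitive cells 0 were called, beside 9.22% of all genes in either direction. The median log2 ratios of the list were 0.35 and -0.13, beside 0.07 and -0.08 for all genes. Among these membrane proteins the tetraspanins were not uniform. CD81 was at 21.9, 33.4 and 66.5 CPM in sensitive, intermediate and fully resistant cells, 3.03-fold higher in fully resistant than in sensitive cells (2.89 to 3.18). CD151, which binds laminin receptors, was at 13.5, 26.4 and 30.7 CPM, and 2.27-fold higher (2.13 to 2.42). CD9 was at 60.6, 32.5 and 30.0 CPM, and 2.02-fold lower (1.94 to 2.11).

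The gelatinases, MMP2 and MMP9, cut denatured collagen and collagen IV, and their RNA levels had opposite orders over the states. MMP2 was at 42.2 CPM in sensitive (41 to 43.6), 8.44 CPM in intermediate resistant (7.89 to 9.03) and 2.26 CPM in fully resistant cells (1.98 to 2.57). MMP9 was at 0.473 CPM in sensitive (0.345 to 0.633), 2.38 CPM in intermediate resistant (2.09 to 2.70) and 4.73 CPM in fully resistant cells (4.32 to 5.16). The 3 intervals of each gene did not overlap. SLC12A5-AS1, across the 3′ end of MMP9 on the opposite strand, was at 1.40, 2.03 and 1.87 CPM. In fully resistant against sensitive cells MMP2 was 18.7-fold lower (16.4 to 21.4) and MMP9 10.0-fold higher (7.36 to 13.9). In intermediate resistant against sensitive cells MMP2 was 5-fold lower (4.65 to 5.39) and MMP9 5.03-fold higher (3.65 to 7.08).

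Pro-MMP2 is activated at the cell surface by MMP14 in a complex with TIMP2. MMP14 was at most 0.0283 CPM in each library, at or below the level of 3 UMIs. Other membrane-type MMPs were measured. MMP16 was at 7.50, 8.22 and 8.97 CPM in sensitive, intermediate and fully resistant cells, and MMP15 at 4.08, 1.24 and 1.41 CPM, or 2.89-fold lower in fully resistant than in sensitive cells (2.39 to 3.51). MMP17, which is anchored by a lipid tail, was at 4.63 CPM in sensitive, 10.5 CPM in intermediate resistant and 6.08 CPM in fully resistant cells. It was 2.26-fold higher in intermediate resistant than in sensitive cells (2.02 to 2.53), and its fully resistant library lay between the other libraries. MMP24, found mainly in brain, was at 4.31, 4.28 and 5.02 CPM, and MMP24OS, on the opposite strand across its 3′ end, at 45.5, 34.1 and 38.7 CPM. MMP11, also called stromelysin-3, was at 2.78, 1.23 and 4.71 CPM. It was lowest in the intermediate library, 2.26-fold lower than in sensitive cells (1.82 to 2.81). The other 14 MMPs were under 1 CPM in every library, among them the collagenases MMP1, MMP8 and MMP13, with no UMI at all.

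TIMP1 and TIMP2 are secreted inhibitors that bind MMPs, and TIMP2 passed the limit in 1 of the 3 comparisons, TIMP1 in 0. TIMP2 was at 28.3 CPM in sensitive (27.3 to 29.4), 16.2 CPM in intermediate resistant (15.4 to 17.0) and 54.4 CPM in fully resistant cells (53.0 to 55.8). It was 1.92-fold higher in fully resistant than in sensitive cells (1.83 to 2.01), just short of a call, and 3.35-fold higher in fully than in intermediate resistant cells (3.17 to 3.54). TIMP1 was at 54.0, 53.1 and 65.9 CPM, and its fully resistant library was 1.22-fold above the sensitive (1.18 to 1.27). TIMP3 was at most 0.459 CPM and TIMP4 at most 0.122 CPM.

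Proteases and inhibitors of other families gave 18 genes tested between fully resistant and sensitive cells. Of these, 1 was higher and 5 lower, beside 8.01% and 8.68% of all genes. Between intermediate resistant and sensitive cells 0 of 18 were higher and 3 lower, beside 3.42% and 5.8%. The median log2 ratio of the list was -0.38 in both comparisons, beside 0.07 and -0.08 for all genes. ADAM12, a membrane protease, was at 10.8, 0.566 and 4.15 CPM in sensitive, intermediate and fully resistant cells, and 19.1-fold lower in intermediate resistant than in sensitive cells (14.7 to 25.4). ADAMTS9, which cuts versican, was at 12.6, 21.6 and 3.22 CPM, and 3.90-fold lower in fully resistant than in sensitive cells (3.46 to 4.41). CTSL, the lysosomal cathepsin L, was at 8.24, 6.77 and 25.4 CPM, and 3.08-fold higher in fully resistant than in sensitive cells (2.85 to 3.34). Matrix glycoproteins and proteoglycans gave 16 genes tested between fully resistant and sensitive cells, with 4 higher and 3 lower, beside 8.01% and 8.68% of all genes. In intermediate resistant against sensitive cells 2 of 14 were higher and 4 lower, beside 3.42% and 5.8%. In fully against intermediate resistant cells 8 of 16 were higher and 2 lower, beside 6.7% and 5.02%. The list's median log2 ratios were 0.42, -0.30 and 1.11 in these comparisons, beside 0.07, -0.08 and 0.14 for all genes. VCAN, the versican proteoglycan, was at 47.2, 14.1 and 34.5 CPM in sensitive, intermediate and fully resistant cells, and FBLN1, which encodes fibulin-1, at 92.5, 37.8 and 116 CPM. Both were lowest in the intermediate library, VCAN 3.36-fold lower than in sensitive cells (3.17 to 3.57) and FBLN1 2.45-fold lower (2.36 to 2.55). THBS1, the adhesive glycoprotein thrombospondin-1, was named after its values were seen. It was at 0.021, 0.00976 and 4.95 CPM, and 235-fold higher in fully resistant than in sensitive cells, where it had 2 UMIs (64.8 to 1947). LTBP4, a binder of latent TGF-beta, was at 10.8, 13.0 and 33.0 CPM, and 3.06-fold higher in fully resistant than in sensitive cells (2.85 to 3.28).

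Each of the 41 genes was placed by the library in which it was highest. Sensitive cells held the highest level of 18 (43.9%, beside 35.4% of all measured genes), intermediate resistant cells of 5 (12.2%, beside 17.1%) and fully resistant cells of 18 (43.9%, beside 47.6%). By steps of at least 1.5-fold each, 4 genes (COL16A1, COL9A2, COL9A3 and MMP9) went up at both steps, which is 9.76% of the 41 and beside 2.12% of all genes. COL4A1, COL4A2, COL6A3, COL6A6, COL9A1 and MMP2 went down at both steps (14.6%, beside 2.22%). The second step of COL4A1 rested on 22 UMIs in fully resistant and 37 in intermediate resistant cells, and its log2 ratio of -0.80 became -0.16 after thinning each cell to 5000 UMIs and -0.19 without the most mitotic 25% of cells, both short of a 1.5-fold step. COL18A1, ITGA11, LAMA4 and MMP17 were at least 1.5-fold higher in the intermediate library than in both others (9.76%, beside 2.21%). COL2A1, ITGA9, MMP11 and TIMP2 were at least 1.5-fold lower there than in both others (9.76%, beside 4.08%). As each library enters 2 of the 3 comparisons, these orders are a description of 3 libraries.

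Genes next to each other on a chromosome can differ together between cultures of a line, and each member was therefore set beside up to 20 measured neighbours, 10 on each side in GENCODE order. For fully resistant over sensitive cells the neighbours of MMP2 had a median log2 ratio of -1.02 and those of MMP15, also on chromosome 16, one of -0.99, where MMP2 itself was at -4.22 and MMP15 at -1.53. The neighbours of LAMB2 were at -0.96, and LAMB2 at -0.86. The neighbours of ITGB1 were at -0.62 in fully resistant and -0.99 in intermediate resistant over sensitive cells, where ITGB1 itself was at -0.81 and -1.33. LAMA1 was at -0.10 among neighbours at 0.85, and MMP9 at 3.32 and COL9A3 at 2.37 among neighbours at 0.49 and 0.53. The neighbours of COL4A1 and COL4A2 were at 0.17, those of COL2A1 at 0.08, of COL16A1 at 0.10, of COL9A1 at 0.08 and of ITGA11 at -0.13, against log2 ratios of the genes themselves of -6.26 to 4.24. The part of the neighbourhood in any ratio was not tested.

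**Figure D3:**
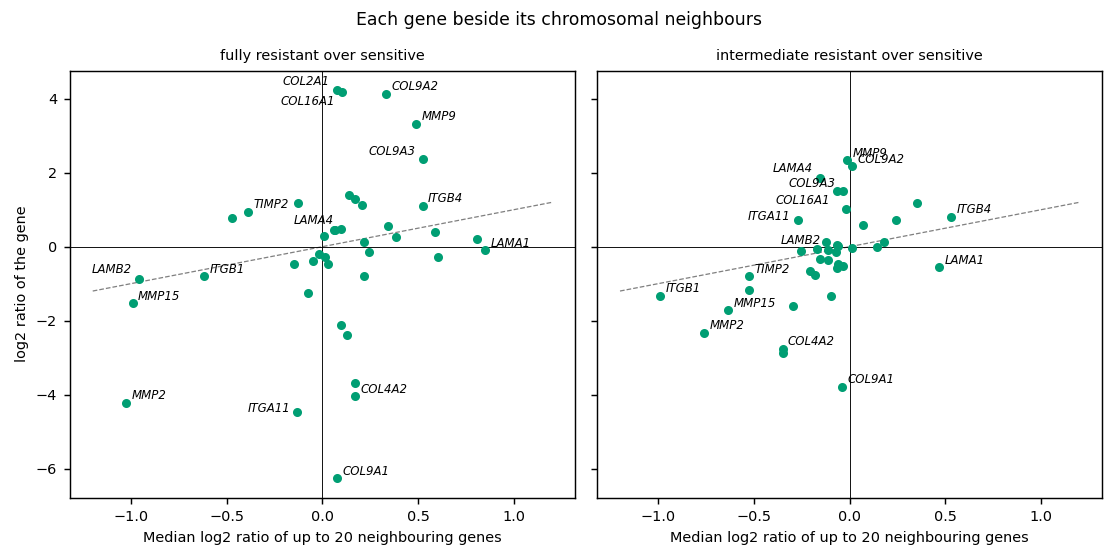
Log2 ratio of each member tested (vertical axis) against the median log2 ratio of up to 20 neighbouring measured genes (horizontal axis), for fully resistant over sensitive cells and intermediate resistant over sensitive cells. The dashed line marks equal values. ITGB1, LAMB2 and MMP15 lie near it in the left panel among low neighbours, and COL2A1, COL16A1, COL9A1 and ITGA11 lie far from it among neighbours near 0.

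At these levels the spread of a member over the cells of a library was mostly close to that of sampling, which leaves little room to see unevenness. In each cell the squared difference between a gene's UMIs and those expected at an even level was divided by the expected number, the variance of Poisson counts. The expected number was scaled to the cell's UMIs, and the mean over cells was taken. At 2 CPM or more, this mean had a median of 1.03 over 35 members in sensitive cells. The medians were 1.06 over 35 members in intermediate resistant and 1.07 over 33 in fully resistant cells. The mean was under 1.2 for 33, 31 and 25 of these members. ITGB1BP1 exceeded 1.3 in each library, COL1A1 in sensitive cells at 1.75 and COL2A1 in fully resistant cells at 1.48. Below 2 CPM, COL4A2 reached 1.86 and COL4A1 1.44 in fully resistant cells. After thinning each cell to 5000 UMIs, MMP2 had a UMI in 19% of sensitive (18.0% to 20.1%), 4.31% of intermediate resistant (3.82% to 4.84%) and 1.17% of fully resistant cells (0.919% to 1.47%), with exact Clopper-Pearson intervals. Unthinned, the shares were 49.0%, 12.4% and 3.68%. COL2A1 had a UMI in 13.6% of thinned fully resistant cells (12.8% to 14.5%), beside 14.3% for an even level, and in 34.9% of the unthinned cells. No cell type that should lack these genes was present to give the share from free RNA.

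UMIs of paired members were found together in some cells, above the product of their shares for some pairs and below it for others. In thinned sensitive cells 12 held both COL4A1 and COL4A2 (7.65 from the product of the shares) and 110 both MMP2 and COL4A2 (104 from the product). In thinned fully resistant cells 89 held both COL2A1 and COL9A2 (83.0 from the product) and 68 both COL2A1 and COL16A1 (60.8). Other pairs lay below the product. In thinned sensitive cells 23 held both ITGB1 and ITGA1 (31.8 from the product). In thinned intermediate resistant cells 5 held both LAMB1 and LAMC1 (10.4). In thinned fully resistant cells 19 held both ITGB1 and ITGA6 (24.5) and 38 both COL9A2 and COL16A1 (42.9). These numbers describe sparse counts and were not tested.

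Members also differed with the cell cycle inside a library. The 25% of cells with the highest share of UMIs in 12 mitotic genes were set against the 25% with the lowest, 1354, 1572 and 1583 cells on each side. In that order of libraries, 453, 441 and 282 cells lay within 10% of the upper limit, so the classes are ranges of a score. Among the most mitotic cells ITGB1 was at 61.1 CPM in the sensitive library, against 46.4 CPM among the least mitotic. In the intermediate library it was at 26.9 against 12.6 CPM, or 2.13-fold higher (1.86 to 2.45), and in the fully resistant library at 34.5 against 25.5 CPM. ITGAV was 3.17-fold higher in the most mitotic cells of the intermediate library (2.53 to 4), at 13.1 against 4.14 CPM, and ITGA6 3.26-fold higher (2.16 to 5.05), at 4.09 against 1.25 CPM. For ITGA6 the ratio was 1.12-fold higher in the sensitive library (0.769 to 1.64) and 1.05-fold lower in the fully resistant library (0.844 to 1.3), intervals that include 1. LAMA1 and ITGAE were higher in the most mitotic cells of all 3 libraries. The direction was opposite for MMP2 and TIMP1, which were lower in the most mitotic cells of all 3 libraries. TIMP1 was at 48.3 against 61.2 CPM in the sensitive, 43.9 against 65.0 CPM in the intermediate and 54.1 against 74.9 CPM in the fully resistant library. In fully resistant cells COL2A1 was at 20.1 against 30.4 CPM, 1.52-fold lower in the most mitotic cells (1.36 to 1.69), and COL9A2 at 16.7 against 29.4 CPM, 1.76-fold lower (1.57 to 1.98). COL4A2 was 3.61-fold higher in the most mitotic cells of the intermediate library (2.41 to 5.57) and 1.98-fold lower in those of the fully resistant library (1.28 to 3.11). The ratio in the fully resistant library rested on 35 against 57 UMIs. There 8 cells held 30 of all 148 COL4A2 UMIs, and the interval, which takes an even spread, may be too narrow. The most mitotic cells were deeper, with medians of 17747.5 against 13893 UMIs in the sensitive, 17079 against 14740 in the intermediate and 17508 against 14814 in the fully resistant library. The part of depth was not tested.

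**Figure D4:**
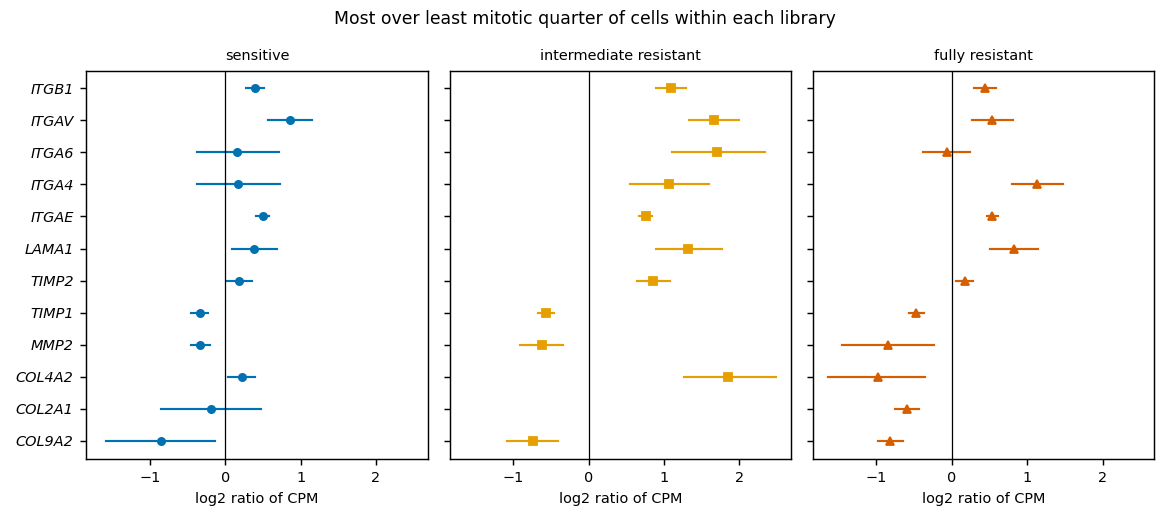
Log2 ratio of CPM between the 25% most mitotic and the 25% least mitotic cells of each library for 12 genes, with exact conditional Poisson 95% intervals. ITGB1, ITGAV, ITGAE and LAMA1 lie to the right of 0 in each panel and TIMP1 and MMP2 to the left. COL4A2 changes side between the intermediate and the fully resistant library, where it rests on 35 and 57 UMIs.

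Fully resistant cells with a UMI of NEUROD1, a neuronal transcription factor chosen with earlier results of these data known, were set against those without, 3011 and 3320 cells. COL16A1 was at 20.1 CPM with and 11.4 CPM without NEUROD1, 1.75-fold higher (1.59 to 1.94). MMP11 was at 6.21 and 3.16 CPM, 1.96-fold higher (1.63 to 2.38), and ITGA4 at 8.39 and 4.79 CPM, 1.75-fold higher (1.5 to 2.05). COL9A2 was lower, at 18.4 and 26.0 CPM, or 1.41-fold (1.3 to 1.54), and ITGA6 too, at 4.26 and 6.65 CPM, or 1.56-fold (1.32 to 1.85). COL2A1 was at 32.0 and 33.4 CPM, and its interval included equal levels (0.975 to 1.12). Cells with a NEUROD1 UMI had a median of 16871 UMIs and those without 15235.5, and such a split separates cells by depth as well as by level.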

How the data were processed

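The deposited values are whole-number UMI counts for each gene and barcode. They were neither normalized nor filtered by the authors, so each library has 737280 barcodes and 32738 gene rows. Per the submitters' processing notes, the tools were bcl2fastq and Cell Ranger and the build was hg19. Versions, and whether counting used strand, are not given in the sources used here. The number of unused per-sample columns was 0. Groups came from the response given in the labels.

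A barcode was called a cell at 5000 UMIs or more, 500 genes or more and at most 20% mitochondrially encoded UMIs. Doublets were kept. CPM were computed from counts summed over cells and the total of each library. Levels carry exact Poisson, ratios exact conditional Poisson and shares exact Clopper-Pearson 95% intervals, which cover counting error only. With 1 library per state no test was run. In ratios a count of 0 was replaced by 3 UMIs, or 0.0315, 0.0293 and 0.0283 CPM in sensitive, intermediate and fully resistant cells. The exact Poisson interval of a count of 0 reaches 0.03878, 0.03601 and 0.03475 CPM in the same order.

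Values in all libraries were given for members of at least 10 CPM or a ratio of at least 4 in any comparison, and for others that complete a subunit pair or receptor group. From each further list, up to 4 genes of at least 10 CPM with the greatest ratios against sensitive cells were eligible for naming, and others are marked where named. The members and lists were chosen with earlier results of these data known. Neighbours and overlaps came from GENCODE v29, matched on gene identifier for 11783 of 11956 measured genes, and promoters from RefSeq. Alternatives covered scaling (TMM factors from edgeR 4.0.16 in R 4.3.3, size factors by median of ratios), cell limits, thinning and the call limits. Values of a few listed genes, and a marker sum that rests on one of them, are not reported here. The counting was tested on simulated data. Python 3.11.15, numpy 2.4.6, scipy 1.17.1, pandas 2.3.3 and matplotlib 3.10.9 were used.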

Additional observations from a re-analysis of the deposited data

How the results depend on the processing

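No paired analysis was possible because each state had 1 library. The counts of members called stayed within 1.5 times under the 3 other scalings, the 4 other cell limits, thinning to 5000 UMIs, a ratio limit of 1.5 and, added after seeing the data, without the most mitotic 25% of cells. The call limits moved them. The counts under other call limits are given without the share over all genes, so they do not set the members apart from other genes. With a minimum of 5 CPM, 4 members were lower in fully resistant than in sensitive cells, and 4 were higher and 5 lower in intermediate resistant than in sensitive cells. With no minimum level, 29 were higher and 21 lower in fully resistant than in sensitive cells. At that setting 21 were higher and 22 lower in intermediate resistant than in sensitive cells. For fully against intermediate resistant cells, 19 were higher and 18 lower. Because a count of 0 was replaced by 3 UMIs, some of these calls run against the counts. COL4A4, COL4A6, LAMA2, LAMB4, ITGB7 and ITGB2 had 1 UMI in sensitive and 0 in fully resistant cells, yet were called higher. COL24A1, COL28A1, COL20A1 and MMP3 had 0 and 1 UMI in the same order, yet were called lower. The same replacement applied in the other comparisons. With a ratio limit of 3, 5 were higher in fully resistant and 3 in intermediate resistant than in sensitive cells, and 3 were lower in fully than in intermediate resistant cells. Of 648 ratios of the 24 named members under alternatives, 575 stayed inside their counting interval and 73 left it. Among the ratios that had been called, 0 reversed. Reversal was not counted for ratios without a call, and some of these near equal levels changed sign. With TMM scaling the log2 ratio of TIMP1 for intermediate resistant over sensitive cells went from -0.023 to 0.025. The greatest shift was 1.72 on the log2 scale, of COL9A1 between fully and intermediate resistant cells after thinning, where 3 UMIs set the fully resistant level. Thinning also moved COL9A1 to a log2 ratio of -4.62 between fully resistant and sensitive cells and COL6A3 to -2.26 between fully and intermediate resistant cells. Depth limits the 70 rows below 2 CPM, for which no difference is given as absent.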

Other observations

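COL1A1 was the member spread least evenly over sensitive cells, and the cells with most of it are described here, chosen after the values were seen. In the sensitive library 161 of 5415 cells had a COL1A1 UMI, and 6 of these had 3 or more, together 23 of the library's 194 COL1A1 UMIs. Without these cells the level of COL1A1 there was 1.80 CPM. Their median of 13745 UMIs was below that of the library, and 0 of them exceeded 2 times the library's median. VIM, the intermediate filament of mesenchymal cells, was found in 6 of the 6 cells, at 622 CPM (468 to 809), against 62.1 CPM in the other sensitive cells. SERPINH1, the collagen chaperone, was at 124 CPM (62.1 to 223), against 18.3 CPM, and COL3A1 had 4 UMIs in 2 of the cells, at 45.2 CPM (12.3 to 116), against 0.179 CPM. CTGF, a secreted matrix-associated protein, had 8 UMIs in 1 of the cells and 1 UMI in all other sensitive cells. DBH, which makes noradrenaline, had 0 UMIs, which allows up to 41.7 CPM by the Poisson interval, against 153 CPM in the others. MYCN was at 271 CPM (174 to 404), against 1240 CPM, and DLK1 at 11.3 CPM (0.286 to 63), against 1010 CPM. MMP2, COL4A2 and ITGB1 were at 67.8 CPM (24.9 to 148), 33.9 CPM (6.99 to 99.1) and 33.9 CPM (6.99 to 99.1), and these intervals held the levels of the other sensitive cells, 42.2, 23.1 and 55.2 CPM. Across the whole sensitive library, cells with a VIM UMI had COL1A1 at 3.07 CPM and cells without one at 1.17 CPM, 2.64-fold higher (1.93 to 3.64), in 2281 and 3134 cells with medians of 16777 and 15427 UMIs. The 6 cells are among those with a VIM UMI and hold 23 of the 134 COL1A1 UMIs there, so this split is not independent of them.

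In the fully resistant library, where COL4A2 was low, 148 COL4A2 UMIs fell in 110 of 6331 cells, and 8 cells held 30 of them. These 8 cells had 4 of the library's COL4A1 UMIs, or 19 CPM (5.18 to 48.7), against 0.17 CPM in the other cells, and 0 MMP2 UMIs, which allows up to 17.5 CPM. Their median of 28910 UMIs was well above that of the library, and 1 of them exceeded 2 times the library's median.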
